A study of Mus musculus with 4 samples.

Results

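Peaks of open chromatin in endogenous retroviral repeats of the ERVK and ERV1 families were followed in a mouse melanoblast line, melb-a, with and without short hairpin RNAs against Hira. A peak was included when the deposited annotation placed it in an LTR repeat of either family, and its subfamily is the repeat's name in that annotation. The rule found 1529 of 70436 peaks, 1070 in ERVK repeats of 195 subfamilies and 459 in ERV1 repeats of 70 subfamilies. For 13 of them the annotation marks the family with a question mark.

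The assay was ATAC-seq, which reads open DNA through the adapters that a transposase inserts there. The cells, labelled wt in genotype, were infected for 16 hours with lentivirus in the presence of 8 µg/ml polybrene and selected with 1 µg/ml puromycin. The control libraries carried shLuciferase or shScramble, and the Hira libraries carried shHIRA I (hairpin I) or shHIRA II (hairpin II). All were made from 1 cell line with 1 library per hairpin, so no hairpin was repeated and the p-values measure only the spread between these 4 libraries.

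Endogenous retroviruses are remnants of germline infections. Each provirus carries long terminal repeats (LTRs), which hold the viral promoter and enhancer, around an internal coding part, and recombination leaves many solitary LTRs. ERV1 repeats resemble gammaretroviruses, while ERVK repeats resemble betaretroviruses and in the mouse include the intracisternal A particles (IAP) and the early transposons (ETn). In mouse embryonic stem cells many are silenced through KRAB zinc finger proteins, Trim28 and Setdb1. The histone variant H3.3, which the HIRA complex and the Daxx and Atrx complex deposit at different sites, is also found at such repeats.

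Sequence could be read only where a peak met a RefSeq promoter, the 250 bases before an annotated start site. 13 member peaks and 14 promoters shared at least 60 such bases (RefSeq, build GRCm38.p6). The promoters below are shown because they hold both peaks of this set that passed the test of Hira against control, an IAP repeat, and 3 near-identical copies of 1 repeat that did not pass. Bases are those inside both peak and promoter, on the gene's strand. Capitals mark ACAAAG, a motif of SOX factors, or CATGTG, an E box variant, on either strand. The named repeat lies at the peak's centre, and its boundaries within the window are not in the files used here.
Gm38646, RMER17B peak, plus strand, chr4:77310582-77310697: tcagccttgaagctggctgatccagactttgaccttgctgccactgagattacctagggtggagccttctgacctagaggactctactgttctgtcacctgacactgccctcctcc
Gm34881, MLTR14 peak, minus strand, chr1:62526211-62526321: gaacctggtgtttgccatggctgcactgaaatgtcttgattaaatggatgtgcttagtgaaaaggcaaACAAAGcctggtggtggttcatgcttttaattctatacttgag
Zfp970, RMER17B peak, plus strand, chr2:177464633-177464741: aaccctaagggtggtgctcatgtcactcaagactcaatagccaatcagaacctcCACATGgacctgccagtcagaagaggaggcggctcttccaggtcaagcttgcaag
Zfp971, RMER17B peak, plus strand, chr2:178023034-178023283: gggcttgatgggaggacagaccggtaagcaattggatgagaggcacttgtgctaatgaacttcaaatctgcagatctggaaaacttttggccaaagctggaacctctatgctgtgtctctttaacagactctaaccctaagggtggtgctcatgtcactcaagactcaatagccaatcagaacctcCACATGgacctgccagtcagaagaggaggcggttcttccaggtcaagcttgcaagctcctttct
Gm14403, RMER17B peak, plus strand, chr2:177497976-177498225: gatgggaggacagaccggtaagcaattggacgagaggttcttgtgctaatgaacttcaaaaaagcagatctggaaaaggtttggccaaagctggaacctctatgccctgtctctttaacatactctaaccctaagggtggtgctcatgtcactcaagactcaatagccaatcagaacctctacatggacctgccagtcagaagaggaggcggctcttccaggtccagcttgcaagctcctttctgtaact
Eps8l1, IAPLTR1_Mm peak, plus strand, chr7:4460447-4460696: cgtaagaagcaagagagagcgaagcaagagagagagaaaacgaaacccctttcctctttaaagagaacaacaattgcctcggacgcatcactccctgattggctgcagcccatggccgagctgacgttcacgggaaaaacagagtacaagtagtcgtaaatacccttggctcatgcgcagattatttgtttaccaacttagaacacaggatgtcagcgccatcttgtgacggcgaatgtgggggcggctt

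Of the 14 promoters, 6 held CATGTG in the part inside the peak, against 12.3% of all 32851 RefSeq promoters over 250 bases, and 3 held ACAAAG, against 16.5%. The TATA box TATAAA was found in 1 (12.4% of all). The E box CACGTG (6.02% of all), the SOX motif ACAATG (10.7%) and the AP-1 motif TGANTCA (6.75%) were found in none. Both strands were searched, and no promoter held more than 1 of these motifs. The windows inside peaks are often shorter than 250 bases. Of those with CATGTG all but the LTR72_RN peak at Gm47708 are RMER17B copies, so they are not independent. Gm35319 and Zfp931 share a peak, and their CATGTG is the same site read on opposite strands.

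The libraries held 20716859.5 (shLuciferase), 15804532 (shScramble), 14718721 (hairpin I) and 8910983 (hairpin II) tags in peaks. A member peak had a median of 71, 53.5, 64.5 and 31.5 tags in the same order. The control libraries differed from each other by less than sampling noise (chi-square per peak 0.935, against 6.24 for the Hira pair) and count as 1 sample, so control levels have n = 1 and Hira means n = 2. Promoter peaks were present at 7 of 9 melanoblast marker genes (Ednrb and Mlana had none), at 3 of 3 Schwann cell and 2 of 6 fibroblast markers, and at 0 of 3 keratinocyte and 0 of 3 macrophage markers. Summed over these promoters, melanoblast markers had 253, 244, 226 and 229 CPM in the 4 libraries, fibroblast markers 55.6, 52.5, 62.3 and 60.8 CPM, and Schwann cell markers 58.2, 60.3, 49.8 and 62.6 CPM; their part in the results was not tested. A hairpin acts on the transcript, so these data do not check the knockdown.

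Most of these peaks were distal, and in control cells most were weak. The lowest control level was 0.163 CPM in ERVK and 0.231 CPM in ERV1. A peak may be in the table through its Hira libraries alone, so not every member need be a peak of control cells. Levels are given as CPM, for which tags were divided by TMM-scaled library sizes. The median control level was 3.31 CPM in ERVK and 3.54 CPM in ERV1 peaks, against 6.02 CPM over all peaks. Peaks in ERVL and MaLR repeats (3.77 CPM, at a median of 28.9 kb from a start site) and in L1 repeats (3.63 CPM, 33.2 kb) were weak and distal too. By annotation 760 ERVK and 364 ERV1 peaks were intergenic and the rest (310 and 95) intronic. The median distance to the nearest start site was 27.4 kb and 22.4 kb, and the median width 433 and 424 bp. The strongest control peaks were an ERVK peak of LTR10_RN in an intron nearest D17Ertd648e (90.4 CPM) and an ERV1 peak of RLTR1D in an intron nearest Stx7 (70.0 CPM). They had 37.2 and 68.5 CPM, and 27.1 and 53.9 CPM, under hairpins I and II, below both controls but without passing the test (log2 fold change −0.79, SE 0.26, and −0.82, SE 0.29; edgeR adjusted p = 0.0780 and 0.0938). Both falls passed under the authors' scaling, in DESeq2, in edgeR's likelihood ratio test and in limma-voom, and the LTR10_RN fall also with edgeR's newer quasi-likelihood estimate. Of the 3 strongest control peaks in each family, only the RLTR14 peak nearest Gm4971 passed (57.4 and 54.6 CPM in the controls, 44.1 and 46.7 CPM under the hairpins; log2 fold change −0.30, SE 0.08, edgeR adjusted p = 0.0395), and that call was lost under the authors' scaling and in DESeq2.

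Under Hira hairpins the ERVK and ERV1 peaks moved in both directions, with more peaks higher than lower. In edgeR's quasi-likelihood test over all 70429 tested peaks (adjusted p under 0.05), 209 of 1070 ERVK peaks rose (19.5%) and 127 fell (11.9%). In ERV1, 99 of 459 rose (21.6%) and 65 fell (14.2%). Over all tested peaks 14.4% rose and 11.0% fell, and over intergenic and intron peaks together 16.0% rose and 12.6% fell. All 1529 members passed the filter on low tags.

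These calls rest on keeping the control libraries as 2 samples. With the controls summed to 1 sample the same test called 0 peaks of the whole table (the smallest adjusted p was 0.0705, and 15560 peaks had an unadjusted p under 0.05). In that setting edgeR's likelihood ratio test called 133 ERVK peaks higher and 63 lower, and 69 and 36 in ERV1. A count without a test is therefore given too: both hairpins lay at least 2-fold above the summed controls at 137 ERVK (12.8%) and 73 ERV1 peaks (15.9%), against 7.91% of all peaks. They lay at least 2-fold below at 76 (7.10%) and 38 (8.28%), against 5.47%. ERVL and MaLR repeats, the other LTR class, had 15.9% of peaks called higher and 16.8% lower by edgeR with 4 libraries. L1 repeats had 16.8% and 19.6%. By the 2-fold rule the shares above and below were 10.9% and 9.69% in ERVL and MaLR repeats, and 11.3% and 12.3% in L1 repeats. In intergenic and intron peaks outside repeats they were 8.78% and 6.17%. The shares below in ERVK and ERV1 were thus smaller than those in ERVL and MaLR or L1 repeats. The difference between repeat classes was not tested.

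**Figure D1:**
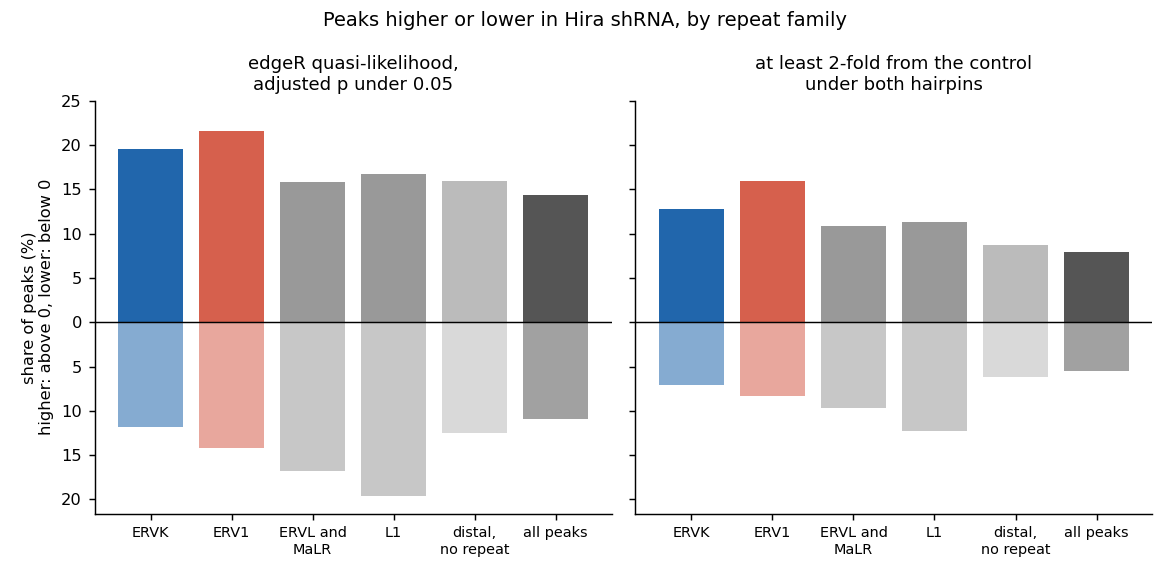
Share of peaks (%, y axis) higher (above 0) or lower (below 0, paler) in Hira shRNA, by repeat family, for the edgeR calls (left) and the 2-fold rule under both hairpins (right); distal, no repeat stands for intergenic and intron peaks outside repeats. ERVK and ERV1 have 19.5% and 21.6% of peaks called higher, against 14.4% of all peaks.

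The scaling of the libraries moved the balance between rises and falls. Under TMM the median log2 fold change was 0.05 in each family and 0.0019 over all peaks. Under the authors' scaling, recovered from their deposited fold changes, it was −0.23 in ERVK, −0.24 in ERV1 and −0.26 over all peaks, and 204 ERVK peaks were called higher and 235 lower, with 100 and 121 in ERV1. The authors' deposited table calls 161 ERVK peaks higher and 156 lower, and 70 and 76 in ERV1, against 8.48% higher and 11.8% lower of all peaks. Those calls use another test, with a likelihood ratio statistic, and a stricter limit. An RLTR13D2 peak nearest Ywhaq was not called at their adjusted p of 0.0162, while that nearest Mtdh was at 0.00977. All later values compare a peak with the bulk of the table.

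The hairpins differed in size. Summed over ERVK peaks, accessibility was 6313 and 6269 CPM in the controls, 7271 CPM under hairpin I and 6415 CPM under hairpin II. Summed over ERV1 peaks it was 3045 and 3037 CPM in the controls, 3361 CPM under hairpin I and 3136 CPM under hairpin II. Hairpin I was thus 1.16 times and 1.11 times the control in these sums, against 1.01 times over all peaks. Hairpin II was 1.02 and 1.03 times the control, against 1.02 times over all peaks. The median log2 ratio to the summed controls was 0.12 for hairpin I and −0.04 for hairpin II in ERVK, and 0.07 and −0.05 in ERV1. Both hairpins lay above the controls at 441 ERVK and 186 ERV1 peaks and below at 405 and 189, while at 224 and 84 they lay on opposite sides. The hairpins share their controls, so their ratios are not independent of each other.

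**Figure D2:**
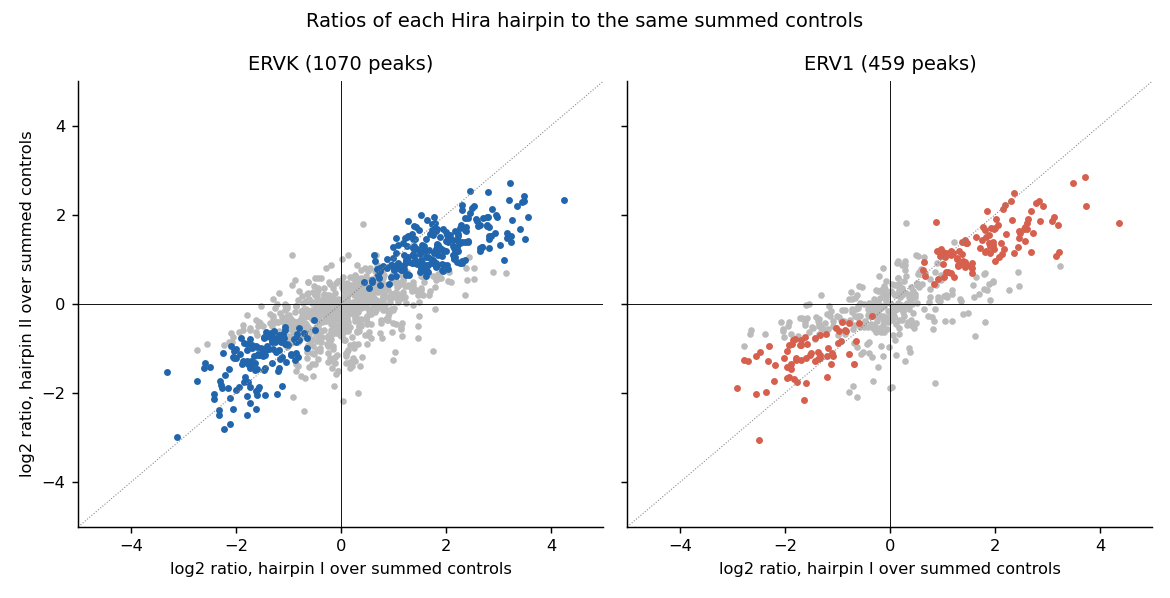
Log2 ratio of hairpin I (x axis) and hairpin II (y axis) to the same summed controls for each ERVK (left) and ERV1 (right) peak; coloured points passed edgeR's test with 4 libraries, grey points did not, and the dotted line marks equal ratios. Called peaks lie in the upper right and lower left corners, and the SD of ratios is larger for hairpin I (1.23 in ERVK and 1.36 in ERV1) than for hairpin II (0.90 and 0.95).

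Subfamily medians lay on both sides of 0 in each family. Medians of few peaks spread more than those of a whole family, so these spreads are not compared. Of the 36 subfamilies with at least 10 peaks, which hold 772 members, median log2 fold changes ran from −0.89 to 1.59 in ERVK and from −0.81 to 1.24 in ERV1. Among the 25 such ERVK subfamilies 15 had a median above 0, and among the 11 of ERV1 7 did. Under the authors' scaling medians near 0 changed sign, among them RMER5 (0.22 to −0.05), IAPEY4_LTR (0.13 to −0.16), RMER19C (0.08 to −0.20) and MMVL30-int (0.05 to −0.25). The medians of the subfamilies named as rising or falling below kept their sign under that scaling, except RMER5 and RMER19C. The subfamilies were singled out with their values in view, so no test of a subfamily is given.

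**Figure D3:**
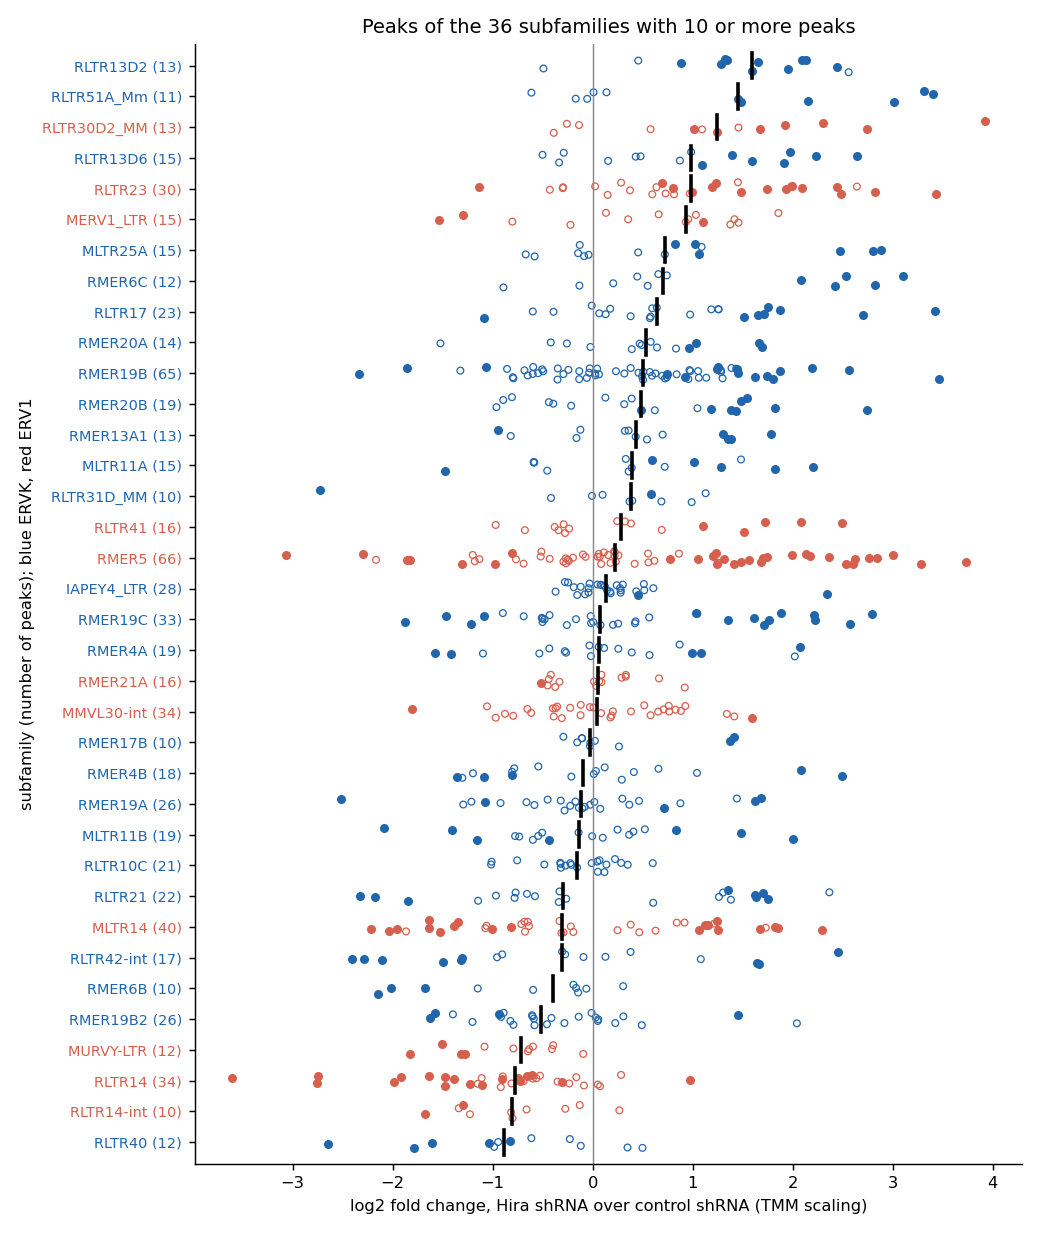
Log2 fold change of Hira over control shRNA (x axis, TMM scaling) for every peak of the 36 subfamilies with at least 10 peaks (y axis, ordered by median; number of peaks in brackets; blue ERVK, red ERV1); filled points passed edgeR's test with 4 libraries, and black bars are medians. RLTR13D2 and RLTR51A_Mm lie at the top, and RLTR40 and RLTR14-int at the bottom.

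Peaks in RLTR13 LTRs of ERVK rose far more often than they fell. Some elements of this group are known as enhancers in mouse trophoblast stem cells. That role was not tested here and is not claimed for the subfamilies that rose. Of 81 peaks in repeats whose name starts with RLTR13, 36 rose (44.4%) and 5 fell, with a median log2 fold change of 0.87. The group was mixed: RLTR13D5 had 0 higher and 2 lower of 9 peaks, and RLTR13B1 had 0 and 0 of 8. In RLTR13D2, 10 of 13 peaks rose and 0 fell. Its median level was 1.64 CPM in the controls, 5.16 CPM under hairpin I and 3.82 CPM under hairpin II. Both Hira libraries lay above both controls at 12 of its 13 peaks, the exception being the peak nearest Mir5099.

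The RLTR13D2 peak with the largest called change was intergenic, 14.9 kb from Asah1, the acid ceramidase gene (mm10 chromosome 8, 41389218 to 41389906). It had 0.89 and 1.10 CPM in the controls, 6.66 CPM under hairpin I and 3.82 CPM under hairpin II. The Hira libraries lay above both controls (log2 fold change 2.44, SE 0.37, with an edgeR adjusted p of 0.0140). The peak nearest Ugt2b35 had an even larger fold change, 2.56, but its Hira libraries lay far apart (13.96 and 2.51 CPM, against 1.36 and 1.57) and it did not pass (SE 0.77, edgeR adjusted p = 0.0614). RLTR13D6 had 7 higher and 0 lower of 15, with a median of 0.98 that was 0.31 without hairpin I.

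RLTR51A_Mm, whose family the annotation marks with a question mark, had 6 rising and 0 falling of 11 peaks. All 6 that rose started at 3.88 CPM or less in either control, while 4 of the 5 others stood at 13.7 CPM or more in both. A peak weak in the controls may be in the table through its Hira libraries alone, so this split supports nothing about starting levels. The peak 112 kb from Bcl2l11, the gene of the cell death protein Bim, had 0.34 and 0.47 CPM in the controls and 4.82 and 3.82 CPM under hairpins I and II (chromosome 2, 128239384 to 128239864; log2 fold change 3.40, SE 0.33, edgeR adjusted p = 0.0125). By contrast the strongest RLTR51A_Mm peak, nearest Gm15413, had 53.6 and 54.7 CPM in the controls and 53.8 and 55.1 CPM under the hairpins, a log2 fold change of 0.01 (SE 0.07, edgeR adjusted p = 0.944).

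Other ERVK subfamilies with a larger share of rises than the 19.5% of all ERVK peaks were RMER20B (8 higher, 0 lower of 19), RMER6C (5 and 0 of 12), MLTR25A (6 and 0 of 15), RLTR17 (7 and 1 of 23) and RMER19C (10 and 4 of 33), among others. RMER19B, with 13 higher and 3 lower of 65, was close to that share. The strongest RMER19B peak by p was intronic and nearest Camkmt, the calmodulin-lysine methyltransferase gene. It had 0.55 and 0.35 CPM in the controls and 3.16 and 2.62 CPM under hairpins I and II. This was a rise from a low base (log2 fold change 2.56, SE 0.32, edgeR adjusted p = 0.0125).

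Further rises are described among peaks whose mean level over all 4 libraries lay above the median of all tested peaks. A peak can pass that limit through its Hira libraries alone, so the choice supports nothing about levels. An RMER6-int peak on chromosome 17 (61664880 to 61665731), assigned to the ephrin gene Efna5 from 1216 kb away, had 2.85 and 2.67 CPM in the controls, 20.5 CPM under hairpin I and 8.44 CPM under hairpin II (log2 fold change 2.41, SE 0.44). An RMER20C_Mm peak in an intron nearest Kcnq3, a potassium channel gene, had 2.78 and 1.66 CPM and then 17.02 and 5.82 CPM (2.38, SE 0.56). In both the first hairpin gave the far larger gain, and their edgeR adjusted p were 0.0185 and 0.0324. Gains of more even size were seen at an MLTR18C_MM peak nearest 4930428D20Rik (2.99 and 4.21 CPM against 18.6 and 13.97; log2 fold change 2.199, SE 0.26) and at an RLTR19 peak 18.9 kb from Ccdc88b (7.32 and 7.72 CPM against 34.1 and 23.95; 1.96, SE 0.20), each with an edgeR adjusted p of 0.0125. An RLTR13D3 peak 110 kb from Manea, a mannosidase gene, had 3.09 and 2.57 CPM against 14.8 and 5.76 CPM (1.89, SE 0.46, edgeR adjusted p = 0.0368).

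Rising ERV1 peaks were most numerous in RMER5 and RLTR23. Of 66 RMER5 peaks 24 rose and 7 fell, of 30 RLTR23 peaks 14 rose and 1 fell, and of 13 RLTR30D2_MM peaks 7 rose and 0 fell. Of the 99 rising ERV1 peaks these subfamilies hold 45. MLTR14 moved both ways, with 9 higher and 10 lower of 40 and a median log2 fold change of −0.30. Median levels went from 2.91 CPM in the controls to 8.17 and 5.90 CPM under hairpins I and II in RLTR23, and from 2.53 to 9.17 and 4.45 CPM in RLTR30D2_MM.

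Peaks of RMER5 differed in how evenly the hairpins raised them. The peak 6.10 kb from Ccdc68 had 1.65 and 2.26 CPM in the controls, 27.3 CPM under hairpin I and 9.52 CPM under hairpin II (log2 fold change 3.28, SE 0.55, with an edgeR adjusted p of 0.0158). The peak 10.4 kb from Med15, which encodes a Mediator subunit (chromosome 16, 17732673 to 17734007), had 10.2 and 9.76 CPM in the controls and 56.2 and 30.6 CPM under the hairpins (2.13, SE 0.29, edgeR adjusted p = 0.0127). Both hairpins lay above both controls at each peak. The other RMER5 gains lay 21.5 kb from Pigt, a gene of GPI anchor attachment (2.25 and 2.83 CPM against 18.0 and 12.8; log2 fold change 2.62), and 93.4 kb from Rybp, which encodes a Polycomb subunit (3.78 and 3.70 CPM against 19.3 and 14.4; 2.17). The strongest RMER5 call by p, intronic and nearest Ccdc80, was nearly equal under both hairpins, 36.6 and 36.6 CPM against 17.1 and 18.3 CPM (log2 fold change 1.05, SE 0.10, with an edgeR adjusted p of 0.0125).

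The intronic RLTR23 peak nearest Asb8 (chromosome 15, 98156027 to 98156325) had 2.75 and 3.74 CPM in the controls and 11.8 and 14.3 CPM under hairpins I and II (log2 fold change 1.996, SE 0.23, edgeR adjusted p = 0.0125). Here hairpin II was the higher. The RLTR23 peak nearest Tulp4 rose from 0.65 and 0.63 CPM to 8.53 and 5.42 CPM (log2 fold change 3.43). In RLTR30D2_MM the strongest peak, intronic and nearest Sh2d4a, had 19.4 and 22.3 CPM in the controls and 40.3 and 43.97 CPM under the hairpins (1.01, SE 0.11, edgeR adjusted p = 0.0125). MERV1_LTR had a median of 0.93 over 15 peaks, but 1 rose and 2 fell, and its median was −0.05 without hairpin I. An LTRIS2 peak on chromosome 12, assigned to Nova1 from 1202 kb away, had 1.70 and 2.10 CPM against 18.6 and 4.50 CPM (2.63, SE 0.66, edgeR adjusted p = 0.0388), a call lost in limma-voom.

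In RLTR14, an ERV1 LTR, falls outnumbered rises. Of 34 peaks 17 fell and 1 rose, and of 10 peaks in its internal part, RLTR14-int, 2 fell and 0 rose. The median RLTR14 level was 6.22 CPM in the controls, 3.81 CPM under hairpin I and 3.76 CPM under hairpin II, and both hairpins lay below the summed controls at 29 of 34 peaks. The median log2 fold change of −0.78 shrank to −0.57 when hairpin I was left out and was −0.93 when hairpin II was.

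The intronic RLTR14 peak nearest Adcy9, an adenylate cyclase gene (chromosome 16, 4363059 to 4363597), had 14.2 and 12.7 CPM in the controls and 4.93 and 5.42 CPM under hairpins I and II. The Hira libraries were close to each other and well below the controls (log2 fold change −1.38, SE 0.18, with an edgeR adjusted p of 0.0125). The RLTR14 peak 12.0 kb from Slc17a2 fell from 2.15 and 2.13 CPM to 0.27 and 0.06 CPM (−3.60, SE 0.59, edgeR adjusted p = 0.0153). The 1 RLTR14 peak that rose, in an intron nearest Gm36908, had 6.46 and 6.03 CPM in the controls and 14.2 and 10.2 CPM under the hairpins (0.98, SE 0.21, edgeR adjusted p = 0.0274). The RLTR14-int peak nearest Gm33251 had 39.8 and 36.4 CPM and then 6.80 and 18.0 CPM, a fall of 1.68 on the log2 scale (SE 0.40, edgeR adjusted p = 0.0340). Of the RLTR14 peaks 6 lie on chromosome 17, 4 of them lower, and near-identical copies there could share reads.

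Falls also led in MURVY-LTR of ERV1 (4 lower, 0 higher of 12; median −0.72) and in RLTR40 of ERVK (5 lower, 0 higher of 12; median −0.89). The MURVY-LTR median was −0.49 when hairpin I was left out and −1.39 when hairpin II was, and the RLTR40 median −0.55 and −1.06. DESeq2 called 1 MURVY-LTR and 4 RLTR40 peaks lower. The RLTR40 peak nearest 1700025B11Rik had 15.5 and 14.6 CPM in the controls and 4.32 and 4.33 CPM under hairpins I and II (log2 fold change −1.79, SE 0.17, edgeR adjusted p = 0.0125). A peak of the same subfamily 97.0 kb from Cntn1, the contactin gene, had 10.7 and 10.2 CPM against 3.30 and 3.59 CPM (−1.60, SE 0.19, edgeR adjusted p = 0.0125). Both hairpins gave almost the same level at each. In MURVY-LTR the peak nearest Dnm1l, which encodes a protein of mitochondrial fission, fell from 9.24 and 8.92 CPM to 3.53 and 3.76 CPM (−1.32, SE 0.19, edgeR adjusted p = 0.0136).

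Where edgeR made 0 calls in a direction, other rules made few. At an unadjusted p under 0.05, 1 RLTR51A_Mm, 1 MLTR25A and 3 RMER20B peaks were lower, and 0 in RLTR13D2, RLTR13D6, RMER6C and RLTR30D2_MM, while 1 RLTR40 peak and 0 RLTR14-int and MURVY-LTR peaks were higher. DESeq2 made 0 calls in these directions. Limma-voom called 1 RMER20B and 1 MLTR25A peak lower, the likelihood ratio test 1 peak each in RMER20B, MLTR25A and RLTR51A_Mm, and the newer quasi-likelihood estimate 2 in RMER20B and 1 in MLTR25A.

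Falls by the same rule of choice included an ERVK peak of RLTR18B 7.29 kb from Cpe, the carboxypeptidase E gene (chromosome 8, 64700056 to 64700737). It had 19.0 and 17.3 CPM in the controls, 1.73 CPM under hairpin I and 6.22 CPM under hairpin II (log2 fold change −2.30, SE 0.49, edgeR adjusted p = 0.0261). Falls of similar size under both hairpins were seen at an RLTR33 peak 28.6 kb from Ammecr1l (9.86 and 11.5 CPM against 2.65 and 2.74; −1.99) and at an RMER19C peak 88.7 kb from Pdp1, a pyruvate dehydrogenase phosphatase gene (9.36 and 10.9 CPM against 2.92 and 2.57; −1.88). An intronic RMER16_Mm peak nearest Wnk2, a kinase gene, had 10.03 and 9.54 CPM against 2.28 and 4.11 CPM (−1.66, SE 0.30, edgeR adjusted p = 0.0178). In ERV1 an LTR103b_Mam peak 24.1 kb from Ptprf, a receptor phosphatase gene, fell from 11.0 and 12.1 CPM to 3.70 and 3.19 CPM (−1.73, SE 0.20, edgeR adjusted p = 0.0125). An MLTR14 peak nearest Jph4 (12.4 and 12.5 CPM against 2.96 and 5.19), a MER89 peak nearest 1700031L13Rik (12.5 and 13.9 against 3.70 and 5.53) and a MERV1_LTR peak nearest Lcn5 (13.4 and 15.0 against 4.25 and 5.76) fell by 1.63, 1.56 and 1.54 on the log2 scale, with edgeR adjusted p of 0.0167, 0.0140 and 0.0127.

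**Figure D4:**
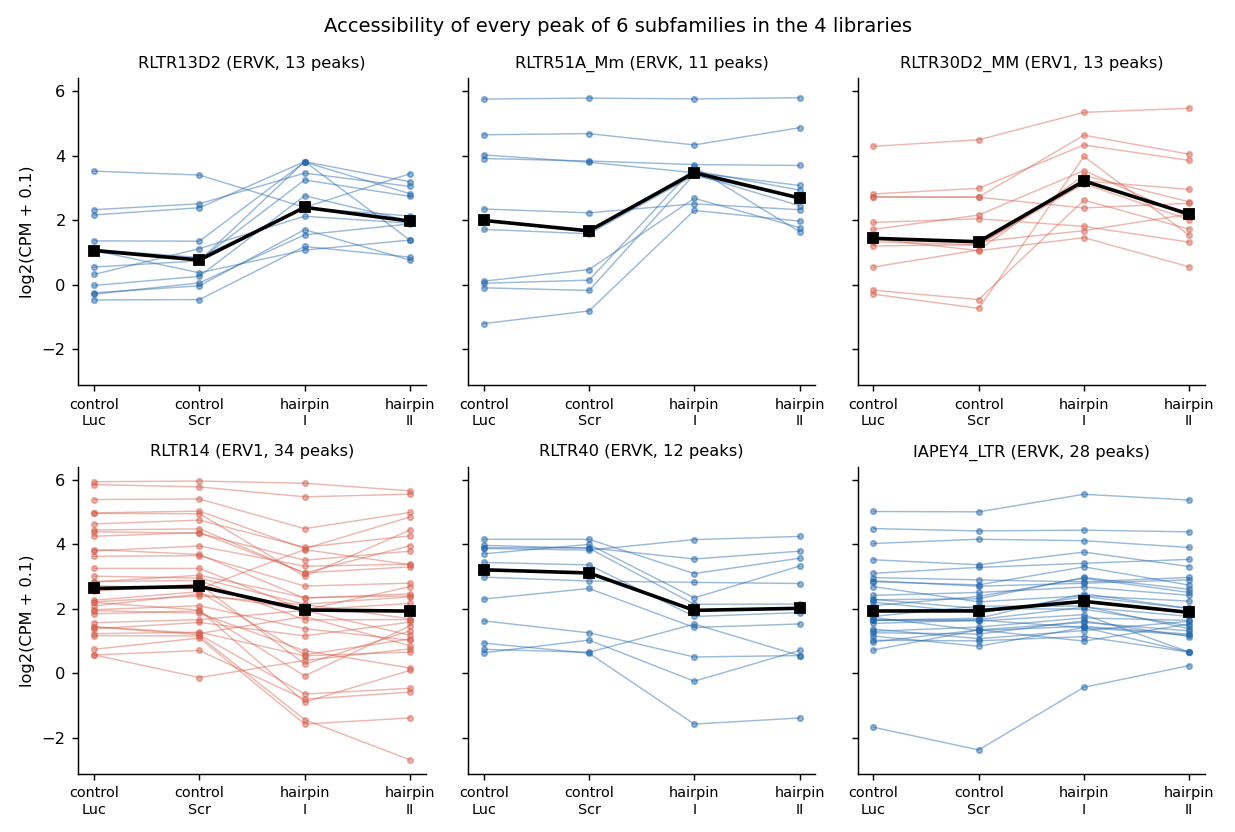
Level of each peak in the 4 libraries (y axis, log2 of CPM plus 0.1; coloured lines, 1 per peak) for 6 subfamilies, with the median in black. The RLTR13D2 median goes from 1.64 CPM in the summed controls to 5.16 and 3.82 CPM under hairpins I and II, the RLTR14 median from 6.22 to 3.81 and 3.76 CPM, and the IAPEY4_LTR median from 3.88 to 4.62 and 3.62 CPM.

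IAP repeats include some of the most active retroviruses of the mouse genome, but which of these peaks lie in active copies is not known. The IAP peaks moved little. Of 60 IAP peaks 4 rose (6.67%) and 0 fell by edgeR (1 at an unadjusted p under 0.05, and 0 in DESeq2), with a median log2 fold change of 0.13 (0.27 for hairpin I and −0.08 for hairpin II). Their sum was 331 and 328 CPM in the controls, 390 CPM under hairpin I and 324 CPM under hairpin II. The 4 that rose were an IAPEz-int peak nearest Hjv, an IAPLTR3-int peak nearest Ccdc66 and IAPEY4_LTR peaks nearest Incenp and Raet1a. At the Hjv peak the controls had 1.03 and 0.75 CPM and the hairpins 5.06 and 2.74 CPM (2.12, SE 0.39, edgeR adjusted p = 0.0190). The Raet1a peak, the strongest IAP peak, had 32.2 and 32.0 CPM against 46.6 and 41.2 CPM (0.46, SE 0.09, edgeR adjusted p = 0.0238), and its call was lost under the authors' scaling and in DESeq2. At the Incenp peak the controls had 0.22 and 0.09 CPM, a few tags, so its fold change of 2.34 is loosely set.

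Few calls were also made in other groups of young or well-known repeats. By edgeR and DESeq2 the 7 ETn and MMERVK10C peaks had 0 calls (1 higher and 1 lower at an unadjusted p under 0.05), and so had the 21 RLTR10C peaks (1 higher and 2 lower). In MMVL30-int, the internal part of VL30 elements, 1 rose and 1 fell of 34. The peak that fell, nearest Vmn2r87, had 4.52 and 3.64 CPM in the controls and 1.02 and 1.37 CPM under the hairpins (log2 fold change −1.80, SE 0.30, edgeR adjusted p = 0.0154). Many copies of these subfamilies are near-identical, and the sources used here do not say how reads that map to several copies were handled. A copy without a peak was not measured.

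Counts were split into LTRs and internal parts, beside 14.4% higher and 11.0% lower over all tested peaks. Of 949 ERVK peaks in LTRs 196 rose (20.7%) and 105 fell (11.1%). Of 121 in internal parts 13 rose (10.7%) and 22 fell (18.2%). The median log2 fold changes were 0.09 in LTRs and −0.12 in internal parts. In ERV1, 88 rose (23.8%) and 57 fell (15.4%) of 370 LTR peaks, and 11 (12.4%) and 8 (8.99%) of 89 internal peaks. The difference between them was not tested.

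Counts were also split by the level of the peak. Split into equal bins Q1 (weakest) to Q4 by mean log2 CPM over all libraries, ERVK peaks had 49 higher and 45 lower in Q1, 57 and 23 in Q2, 57 and 24 in Q3, and 46 and 35 in Q4. In ERV1 the counts were 21 and 18, 25 and 11, 25 and 16, and 28 and 20. That level includes the Hira libraries, so a rise can lift a peak into a higher bin and a fall can lower it. The counts by bin therefore support nothing about level. Distance to the start site gave, for ERVK, 18.6% higher within 1 to 10 kb, 19.5% within 10 to 100 kb and 21.7% beyond 100 kb. For ERV1 the shares were 17.1%, 22.8% and 24.6%, against 14.4% of all tested peaks. The shares lower were 11.4%, 12.1% and 11.6% in ERVK and 9.91%, 16.2% and 10.5% in ERV1, against 11.0%. Differences between distances were not tested. The fold changes of Q1 rest on few tags.

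At promoters, 2 of the 13 member peaks were called, against 17840 of all 70429 tested peaks (14.4% higher and 11.0% lower). So few peaks show no difference from those shares. The RMER17B peak at Gm38646, which the authors' annotation assigns to Ptprd from 901 kb away, had 4.69 and 4.80 CPM in the controls and 15.2 and 8.84 CPM under hairpins I and II (log2 fold change 1.37, SE 0.29, with an edgeR adjusted p of 0.0251). The MLTR14 peak at Gm34881 had 7.80 and 7.82 CPM in the controls and 2.07 and 4.39 CPM under the hairpins (−1.35, SE 0.36, edgeR adjusted p = 0.0450). Their sequences are printed above, and neither holds CATGTG inside the peak, while Gm34881 holds ACAAAG.

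The RMER17B copies at Gm14326, Gm14403, Zfp931, Zfp970 and Zfp971 on chromosome 2 did not pass, with log2 fold changes from −0.29 to 0.02. Zfp931, Zfp970 and Zfp971 are zinc finger protein genes. At Gm14403, the strongest of the 5, the controls had 22.9 and 21.1 CPM and the hairpins 19.98 and 20.9 CPM (−0.11, SE 0.12, edgeR adjusted p = 0.535). The 5 promoters are 94.5% to 97.6% identical over 261 to 294 aligned bases, so reads of one may be counted at another. The IAPLTR1_Mm peak at Eps8l1 had 3.83 and 3.77 CPM in the controls and 4.11 and 4.28 CPM under the hairpins (0.14, SE 0.22, edgeR adjusted p = 0.671).

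One neighbourhood, chosen after its values were seen, held rising and falling repeats side by side. Trim24, which encodes a tripartite motif coregulator known to repress VL30 elements in mouse liver, had 9 member peaks assigned to it within 195 kb of chromosome 6, more than any other gene. Of these 5 rose and 3 fell. The RLTR13C3 peak 33.5 kb upstream (37836969 to 37837631) had 2.08 and 2.45 CPM in the controls and 17.1 and 6.84 CPM under hairpins I and II (log2 fold change 2.43, SE 0.46, edgeR adjusted p = 0.0201). An RLTR13D4 peak 45.2 kb upstream went from 0.96 and 1.00 CPM to 8.53 and 4.56 CPM, and an RLTR30D2_MM peak 76.5 kb upstream from 0.79 and 0.63 CPM to 6.05 and 3.19 CPM. Between and beyond them, an RLTR14 peak fell from 1.39 and 1.54 CPM to 0.48 and 0.57 CPM, and an intronic RLTR33 peak from 25.8 and 25.4 CPM to 8.70 and 11.5 CPM (−1.36, SE 0.17, edgeR adjusted p = 0.0125). Neighbouring peaks share a locus and are not independent.

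**Figure D5:**
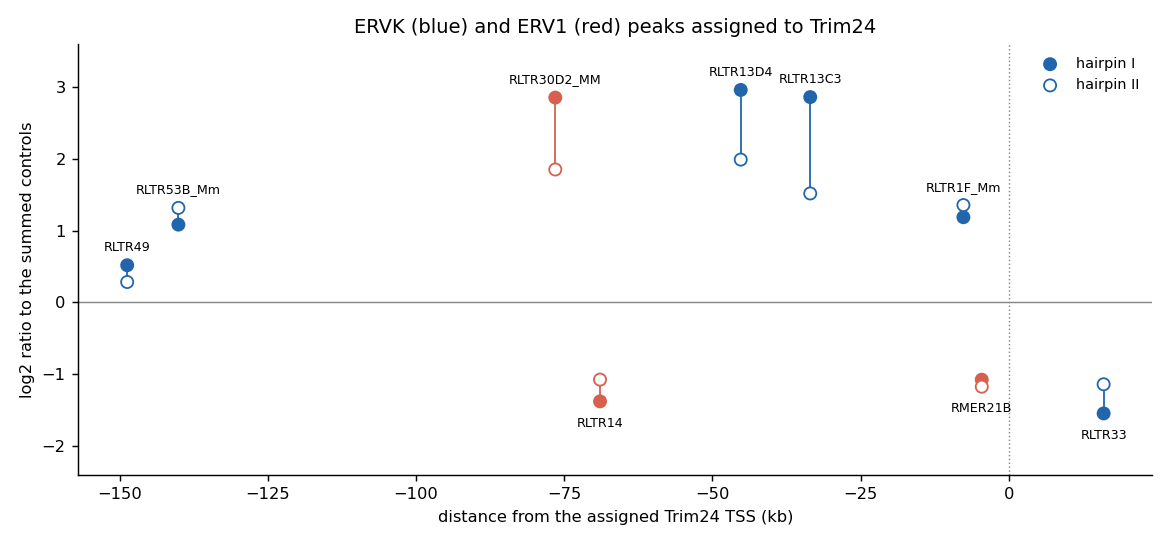
Log2 ratio of hairpin I (filled) and hairpin II (open) to the summed controls (y axis) for the 9 ERVK (blue) and ERV1 (red) peaks assigned to Trim24, by distance from the assigned start site (x axis, kb), each named by its subfamily. RLTR13C3, RLTR13D4 and RLTR30D2_MM lie above 0 and RLTR14, RMER21B and RLTR33 below 0 under both hairpins.

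The genes that silence such repeats were read from their own peaks. Of 40 listed factors 39 had a peak, and of their 123 peaks 17 rose (13.8%) and 11 fell (8.94%), close to the shares of all peaks. Of the 24 promoter peaks among them 0 passed edgeR's or DESeq2's test (2 higher at an unadjusted p under 0.05). Intergenic and intron peaks were called more often (16.0% higher, 12.6% lower) than all peaks (14.4% and 11.0%). The share among all promoter peaks was not counted, so the 0 of 24 supports nothing particular to these genes. The Setdb1 promoter, of the H3K9 methyltransferase, had 9.56 CPM in the summed controls and 8.80 and 7.36 CPM under hairpins I and II, and the Daxx promoter, of an H3.3 chaperone, 124 CPM against 115 and 124 CPM. The calls lay outside promoters: an intronic peak nearest Atrx (which encodes the remodeller that works with Daxx) fell from 5.89 CPM to 0.92 and 1.25 CPM, and an intergenic peak 26.4 kb from Atf7ip, which encodes a Setdb1 partner, rose from 2.19 CPM to 28.7 and 12.5 CPM (edgeR adjusted p = 0.0125 and 0.0126). Accessibility does not measure the expression of these genes or of the repeats.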

How the data were processed

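ATAC-seq libraries of 4 hairpins were used. Per the submitters' processing notes, the mm10 build was used together with MACS2 2.2.9.1, edgeR 3.38.4, Picard, Bowtie2 and cutadapt 2.3, whose roles are not stated. The authors deposited 1 peak table with estimated counts (tags per peak in steps of 0.5), rounded here to whole numbers. Per the file headers, the table also gives the authors' log2 fold change and mean log2 CPM, a score (likelihood ratio statistic), p-values and each peak's distance to a start site. Their columns name the Hira libraries as KO 1 and 2, matched to shHIRA I and II by numeral. The sources used here do not say how reads that map to several repeat copies were treated.

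Each peak was tested with edgeR 4.0.16 (R 4.3.3; quasi-likelihood, two-sided, TMM, filterByExpr, all 4 libraries, group as the only term), adjusted over all peaks. The SE is the size of the log2 fold change divided by the root of the F statistic. A prior of 2 tags entered each hairpin's ratio to the summed controls. The biological coefficient of variation was 0.0100 in the control pair and 0.239 in the Hira pair. The test was tried on simulated data that gave all libraries the same spread, unlike these pairs, so the trial does not bear on the calls here. Alternatives used limma 3.58.1, DESeq2 1.42.0, other scalings, filters, priors and left-out libraries. The authors' scaling was recovered from their fold changes at 46005 peaks. Promoters were aligned with Biopython 1.88 and figures drawn with matplotlib 3.10.9.

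The members and lists were chosen with earlier results of these data known. Named peaks were, per family and direction, those among the 6 largest changes of called peaks above the median level with both Hira libraries beyond both controls, the 3 highest control levels, subfamilies of at least 10 peaks, and the strongest called peak of the 8 largest subfamilies; not all are printed. Other peaks named as examples within a subfamily were chosen after their values were seen. Levels of the 2 controls count as n = 1.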

Additional observations from a re-analysis of the deposited data

How the results depend on the processing

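Of the 42 peaks that the naming rule chose, no called one changed sign under an alternative that was run; other peaks named as examples were not rerun. Counts are given as ERVK higher and lower, then ERV1 higher and lower (209, 127, 99 and 65 in the report). They were 0 with the controls summed, and 0 at an adjusted p under 0.01, since the smallest adjusted p was 0.0125. With at least 20 tags in every library, which tests fewer peaks, they were 113, 54, 63 and 34. The authors' scaling gave 235 and 121 lower, DESeq2's Wald test 73 ERVK lower and the likelihood ratio test 191. With the controls summed, the likelihood ratio test gave 133, 63 and, for ERV1 lower, 36, and the newer quasi-likelihood estimate, which was chosen after seeing the data, 75 and 43 lower. Leaving out 1 library gave 0 to 417, 0 to 292, 0 to 170 and 0 to 144: 0 without either control, 253, 232, 125 and 111 without hairpin I, and the upper ends without hairpin II, fits in which only the control pair gives the spread. The 2-fold counts (137, 76, 73 and 38) were 62, 18, 43 and 14 with 20 tags, 231, 162, 110 and 78 at 1.5-fold, and 45 ERVK lower with a prior of 8 tags. Medians of 0.05 became −0.23 and −0.24 under the authors' scaling and, without 1 library, ran from −0.04 to 0.13 in ERVK and from −0.071 to 0.076 in ERV1. The replicate block gave 230, 144, 106 and 83; same-numbered libraries deviated with r = −0.00725, so the numbers do not pair them. With the block the call nearest Gm4971 was lost, and falls nearest D17Ertd648e, Stx7 and Dnaic2 were called. Beyond settings that call 0 peaks, calls at the peaks nearest Raet1a, Gm4971 and Ccnc were lost in DESeq2 and with the controls summed in the likelihood ratio test, and that nearest Nova1 in limma-voom and with 20 tags. The causes were not tested. Depth limits the weakest peaks: a member had a median of 31.5 tags under hairpin II.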
